A study of Rattus norvegicus with 65 samples.

Results

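Interferon response genes are the genes that a cell switches on when an interferon binds its receptor or when a sensor inside the cell meets foreign or misplaced nucleic acid. A set of 9 rat genes of this response was followed in primary neonatal rat cardiomyocytes, chosen by symbol, and all 9 were among the 14554 genes of the count table. They are the transcription regulators Irf1 (Entrez gene 24508), Irf7 (293624), Irf9 (305896) and Stat2 (288774), and the effectors Isg15 (298693), Mx1 (24575), Rsad2 (65190), Ifit3 (309526) and Ifit1 (56824). RNA sequencing covered 65 libraries in 10 groups of 6 or 7. The 5FU groups received 10 mM 5-fluorouracil in 1% DMSO, the Ace groups 2.5 mM acetaminophen in 0.25% DMSO and the Dox groups 1.25 µM doxorubicin in 0.25% DMSO, each for 6 or 24 h. The control cultures received DMSO alone at the same times, at 1% (DMSO1, the control of 5FU) or at 0.25% (DMSO2, the shared control of Ace and Dox). Cells of several litters were mixed into 1 preparation, which makes the replicates wells of the same cells rather than separate animals, and the p-values measure the spread between such wells.

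In the textbook scheme, sensors such as cGAS, the RIG-I family and the Toll-like receptors lead to the phosphorylation of IRF3 and IRF7, which switch on interferon genes. Type I interferon then acts through its receptor and the kinases JAK1 and TYK2 on STAT2, which joins IRF9 in the complex ISGF3. This complex binds the interferon-stimulated response element (ISRE) of the effector genes, whereas interferon gamma acts through the gamma-activated site (GAS), which also lies in front of Irf1. IRF7 and the proteins of ISGF3 are themselves products of interferon-stimulated genes, which makes the response a loop. The effectors act against viruses: ISG15 is a ubiquitin-like protein that is coupled to other proteins, MX1 is a dynamin-like GTPase, RSAD2 (viperin) makes a chain-terminating nucleotide, and the IFIT proteins bind viral RNA. Several of these genes are also known to rise after DNA damage without infection.

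The ISRE and GAS letters in front of the members are shown first, since they mark where the regulators in the set could act on the other members. RefSeq promoter entries on the build GRCr8, each with 250 bases before and 50 bases after the gene's start, were matched for 7 members, and Isg15 and Ifit1 had no entry. The ISRE core was searched as GAAANNGAAA and, for the other strand, TTTCNNTTTC, and the GAS core as TTCNNNGAA, which reads the same on both strands. The ISRE core was found in 3 of the 7 entries, against 3.92% of all 33469 promoters of the same length, and the GAS core in 2 of the 7, against 8.87% of all promoters. In the lists described below, the ISRE core was found in 35 of 57 entries of other interferon-stimulated genes and in 8 of 12 of antigen presentation genes. The GAS core was found in 12 and 1 of these entries, so neither motif was particular to the members. No member held both. The stretches around the matches, 5′ to 3′ on the strand of the gene, with the match in capitals, are:
Irf7 (chr1:205800048-205800127, minus strand, match from base -69): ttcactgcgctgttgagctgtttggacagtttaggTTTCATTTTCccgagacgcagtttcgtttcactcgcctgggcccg
Ifit3 (chr1:241527247-241527325, plus strand, match from base -44): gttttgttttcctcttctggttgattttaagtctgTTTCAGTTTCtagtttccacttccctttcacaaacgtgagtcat
Rsad2 (chr6:48788223-48788302, minus strand, match from base -147): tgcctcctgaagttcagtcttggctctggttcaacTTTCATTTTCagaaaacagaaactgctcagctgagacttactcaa
Irf1 (chr10:38417758-38417836, plus strand, match from base -142): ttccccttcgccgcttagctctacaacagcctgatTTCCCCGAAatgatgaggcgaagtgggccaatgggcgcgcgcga
Irf9 (chr15:33065702-33065780, plus strand, match from base -99): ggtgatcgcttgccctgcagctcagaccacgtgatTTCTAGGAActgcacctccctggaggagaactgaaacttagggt
The matches in front of Irf7 and Rsad2 have the same 10 letters, and that in front of Ifit3 differs from them. The windows of Stat2 and Mx1 held neither set of letters. These are matches of letters, not measured binding sites.

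Library totals ran from 14332827 to 25738297 estimated counts, and 6 libraries stood apart from their groups over all genes: 1 each in 5FU 6 h, DMSO1 6 h, DMSO1 24 h and Dox 24 h, and 2 in Dox 6 h. Cardiomyocyte markers were present in every library, with a sum between 33921 and 45577 CPM (counts scaled to the effective size of the library) in DMSO2 and between 11795 and 15488 CPM in Dox at 24 h. Markers of other cells were present too, and they moved with the drugs, not all in 1 direction. At 24 h the summed macrophage markers (all 12 tested; Cd163 alone at 0, in 4 libraries) ran from 126 to 155 CPM in DMSO2 and from 55.2 to 73.2 CPM in Dox, the fibroblast markers (8 of 8 tested, none at 0) from 15099 to 18894 and from 1917 to 4064 CPM, and the endothelial markers (7 of 8 tested, none at 0) from 263 to 346 and from 25.3 to 56.4 CPM. The smooth muscle markers (5 of 5 tested, none at 0) ran from 455 to 624 CPM in DMSO2 and from 308 to 1581 CPM in Dox at 24 h (median 1365), where 3 were called higher and 1 lower, and from 728 to 1118 and from 1059 to 3210 CPM at 6 h, where 4 were called higher. For 5FU at 24 h the sums against DMSO1 were 22391 to 24313 against 30207 to 37829 CPM for cardiomyocyte, 5166 to 5837 against 9972 to 19903 CPM for fibroblast, 152 to 178 against 207 to 289 CPM for endothelial, 105 to 121 against 123 to 156 CPM for macrophage and 331 to 535 against 444 to 713 CPM for smooth muscle markers. In Ace at 24 h the fibroblast sum was 7250 to 9277 CPM, the endothelial 164 to 279 CPM, the macrophage 91.1 to 112 CPM, the smooth muscle 269 to 546 CPM and the cardiomyocyte 33888 to 51232 CPM. All 8 fibroblast markers were called lower at 24 h in each of the 3 drugs. The part of these shifts in the results that follow was not tested, and in bulk RNA fewer cells of a type cannot be told apart from less RNA per cell.

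At 24 h most members were higher in 5FU and Dox and fewer in Ace, with the largest increase for Irf7, Isg15, Mx1 and Irf1 in Dox and for Rsad2, Ifit3, Stat2 and Irf9 in 5FU, and at 6 h the direction differed from gene to gene. A gene was called at a false discovery rate (FDR) below 0.01 in edgeR's quasi-likelihood test, adjusted over all genes. In 5FU at 24 h, 8 of 9 members were higher than in DMSO1 and none was lower, where 28.0% of all genes were called higher and 27.8% lower (55.8% in all). In Dox at 24 h, 7 were higher and 1 lower, where 40.4% of all genes were higher and 41.0% lower (81.4% in all). For Ace at 24 h, 4 were higher and none lower, against 18.2% and 19.1% of all genes (37.2% in all). At 6 h the counts were 5 higher and none lower in 5FU (23.4% and 24.5% of all genes, 47.9% in all), 2 higher and none lower in Ace (16.5% and 15.2%, 31.7% in all), and 4 higher and 2 lower in Dox (31.5% and 32.7%, 64.2% in all). The median log2 fold change of the 9 members at 24 h was 0.78 in 5FU, 0.42 in Ace and 1.44 in Dox, with medians of -0.01, 0.00 and 0.00 over all genes. At 6 h it was 0.31, -0.20 and 0.32, with all genes again at 0.00 in each drug. The libraries of drug and control did not overlap for 7 members in 5FU at 24 h (42.9% of all genes), 7 in Dox at 24 h (68.2%), 1 in Ace at 24 h (26.9%), 4 in 5FU at 6 h (28.2%), 2 in Ace at 6 h (24.5%) and 4 in Dox at 6 h (42.6%). Without the 6 libraries that stood apart the members called in either direction were 5 in 5FU, 3 in Ace and 7 in Dox at 6 h, and 8, 4 and 8 at 24 h; Irf9 was added in Ace and Stat2 in Dox at 6 h, both lower.

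**Figure D1:**
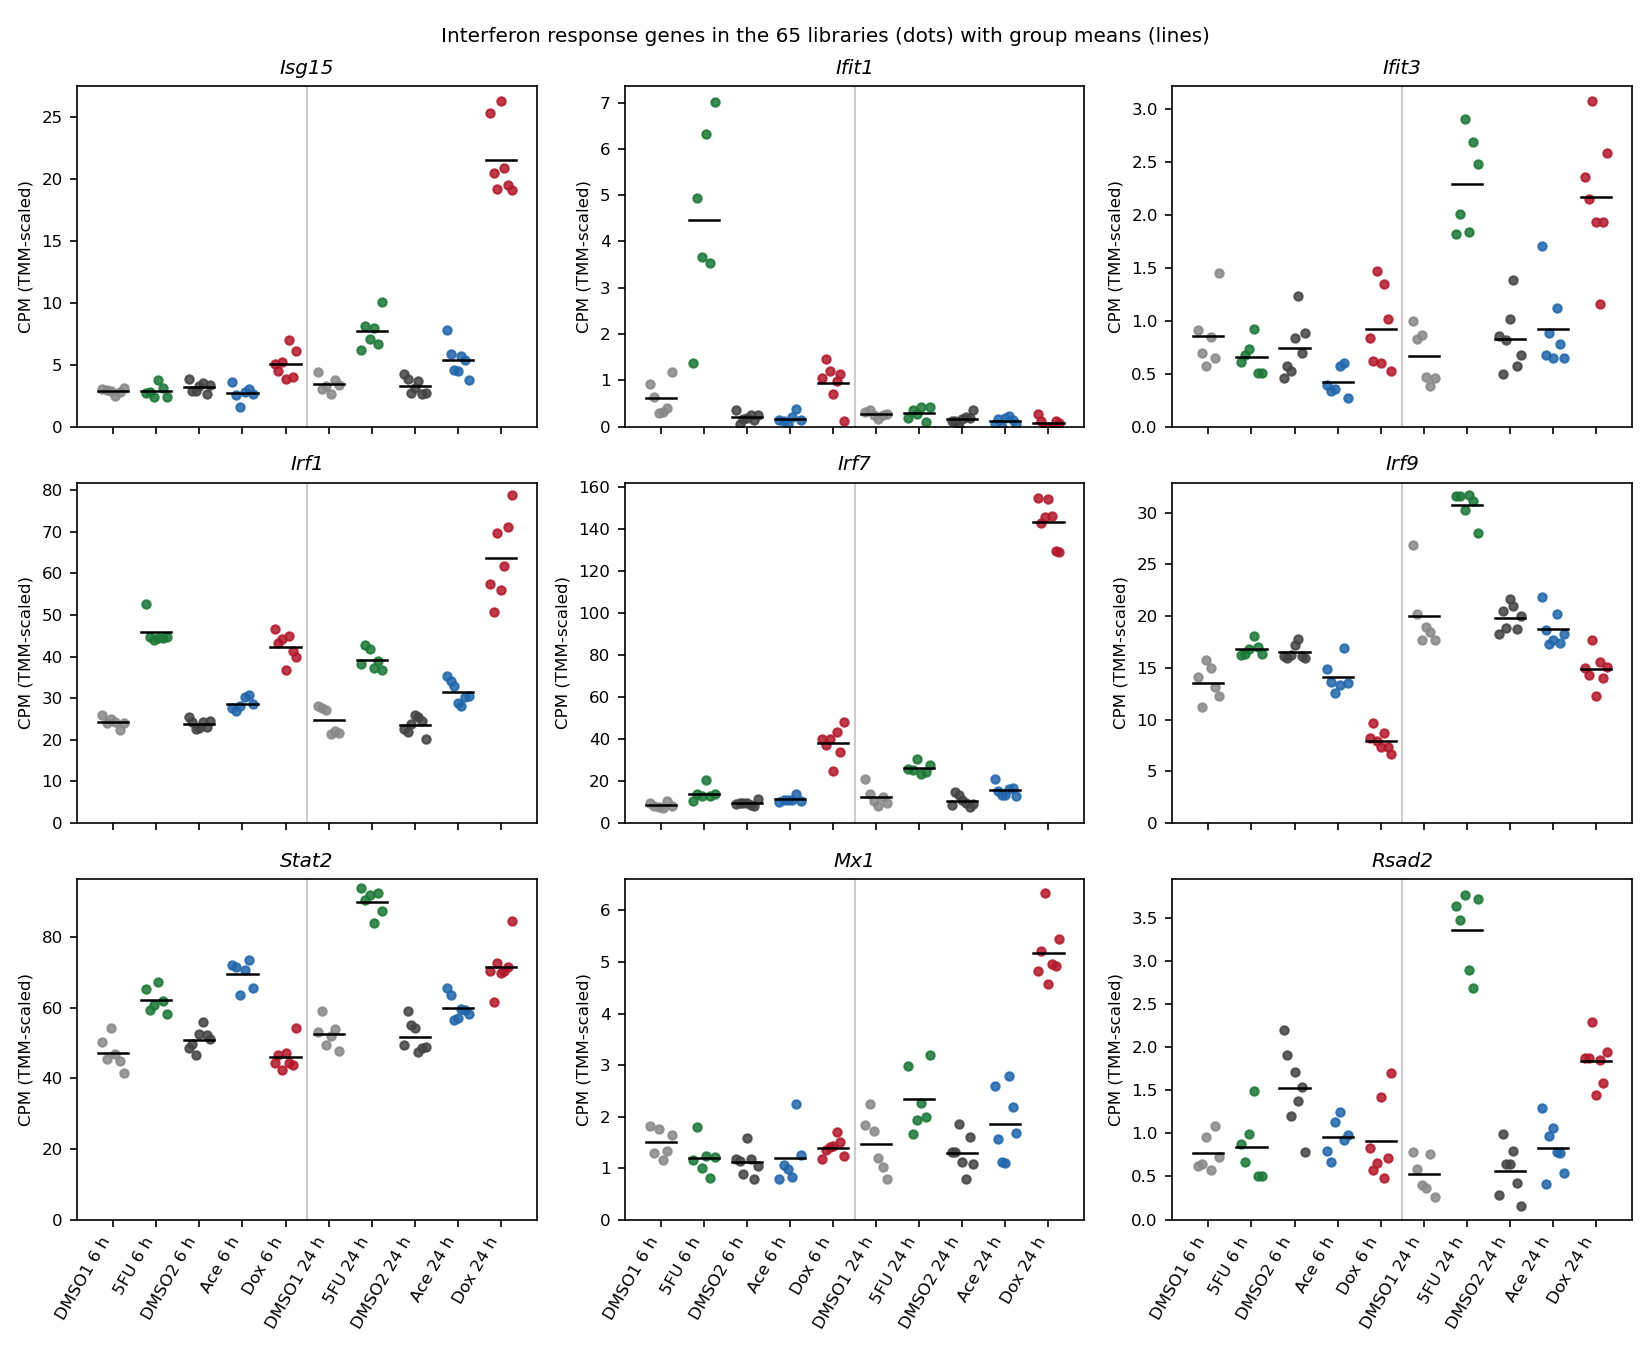
CPM (y axis, linear from 0, TMM-scaled) of the 9 interferon response genes in each of the 65 libraries (dots) of the 10 groups (x axis; 6 h left and 24 h right of the grey line), with the group mean as a black line. Irf7 in Dox at 24 h (129 to 155 CPM) lies above all other groups, Irf9 in Dox lies below its control at both times, and the Ifit1 level is highest in 5FU at 6 h (1.38 to 7.01 CPM).

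Irf7, the IRF family member that amplifies type I interferon production, rose most of the members in Dox at 24 h. In Dox at 24 h its level ran from 129 to 155 CPM (median 146), and in DMSO2 at 24 h from 7.67 to 14.6 CPM (median 9.67). All 7 Dox libraries lay far above all 7 controls, a 13.5-fold difference (log2 fold change 3.75, SE 0.14, FDR 1.82e-34). At 6 h the Dox libraries ran from 24.7 to 48.3 CPM (median 39.9) and the DMSO2 libraries from 8.32 to 11.7 CPM (median 9.51), again with no overlap (4.04-fold, log2 2.01, SE 0.14, FDR 2.31e-20). In 5FU at 24 h Irf7 ran from 23.4 to 30.7 CPM (median 25.6) against 8.01 to 21.0 CPM in DMSO1 (median 11.4), a log2 fold change of 1.06 (SE 0.15, FDR 7.07e-09). The 5FU libraries all lay above the controls, although the highest control, at 21.0 CPM, stood well apart from the others. The smaller increases were 0.73 in 5FU at 6 h (SE 0.16, FDR 6.79e-05), where 5 of 6 libraries lay above all controls, and 0.56 in Ace at 24 h (SE 0.14, FDR 0.000811), where 4 of 7 did. In Ace at 6 h the log2 fold change was 0.25 (FDR 0.18), and Irf7 was not called. By group mean the order was Dox 24 h, Dox 6 h, 5FU 24 h and Ace 24 h. Dox 24 h was apart from Dox 6 h and 5FU 24 h was apart from Ace 24 h, while Dox 6 h overlapped with 5FU 24 h and all groups from Ace 24 h down overlapped with their neighbours.

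Irf1, the IRF family member that answers interferon gamma and tumour necrosis factor, was the only member higher in all 6 drug comparisons, and in each of them every drug library lay above every control library. The control levels were close to each other, from 22.4 to 26.0 CPM in DMSO1 and 22.7 to 25.4 CPM in DMSO2 at 6 h, and from 21.5 to 28.2 and 20.2 to 26.1 CPM at 24 h. In Dox the libraries ran from 36.8 to 46.6 CPM at 6 h (median 43.4) and from 50.8 to 78.9 CPM at 24 h (median 61.8), log2 fold changes of 0.83 (SE 0.07, FDR 1.07e-16) and 1.44 (SE 0.07, FDR 1.23e-28). In 5FU they ran from 43.9 to 52.6 CPM at 6 h (median 44.6) and from 36.8 to 42.8 CPM at 24 h (median 38.6), log2 fold changes of 0.92 (SE 0.07) and 0.67 (SE 0.08). Ace gave the smallest increases, 0.26 at 6 h (SE 0.07, FDR 0.00222) and 0.42 at 24 h (SE 0.07, FDR 9.01e-07). The Irf1 means thus fell into a higher set (both Dox and both 5FU groups, 39.3 CPM and above) and a lower set of the Ace and DMSO groups, and these sets were apart from each other, whereas neighbours within each of them overlapped.

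Irf9, the DNA-binding subunit of ISGF3, went in opposite directions under Dox and 5FU. In Dox at 6 h it ran from 6.64 to 9.64 CPM (median 7.93) against 16.0 to 17.8 CPM in DMSO2 (median 16.2). All 7 Dox libraries lay below all controls, at 0.484 times their level (log2 -1.05, SE 0.08, FDR 1.74e-18). At 24 h the Dox libraries ran from 12.3 to 17.7 CPM (median 14.9) and the DMSO2 libraries from 18.3 to 21.6 CPM (median 20.04), again without overlap (log2 -0.42, SE 0.08, FDR 8.47e-07). In 5FU Irf9 rose at 6 h, from 11.2 to 15.7 CPM in DMSO1 to 16.2 to 18.1 CPM (log2 0.31, SE 0.08, FDR 0.001), and at 24 h, from 17.7 to 26.9 CPM to 28.0 to 31.7 CPM (log2 0.62, SE 0.08, FDR 4.43e-10). No library of 5FU overlapped with its control at either time, but the 6 h control, DMSO1, was itself below DMSO2, and the 6 h call was lost with library size only as the scaling (log2 0.23, FDR 0.0189). Ace gave -0.22 at 6 h (FDR 0.0169) and -0.08 at 24 h (FDR 0.386), neither of them called; the 6 h value was called without Ace library 5 (FDR 0.00399), with the compared groups only (FDR 0.00755) and without the 6 libraries that stood apart (log2 -0.25, FDR 0.00113). The difference between the Dox and 5FU effects on Irf9 was itself called at both times, at -1.35 (SE 0.11, FDR 3.37e-16) at 6 h and -1.04 (SE 0.11, FDR 3.35e-13) at 24 h.

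Stat2, the other partner of IRF9 in ISGF3, rose in 5FU, in Ace and, late, in Dox. In 5FU it ran from 58.3 to 67.4 CPM at 6 h against 41.4 to 54.2 CPM (log2 0.40, SE 0.06, FDR 7.43e-08) and from 84.0 to 93.8 CPM at 24 h against 47.8 to 59.0 CPM (log2 0.78, SE 0.06, FDR 1.15e-17). In Ace it ran from 63.6 to 73.6 CPM at 6 h against 46.7 to 55.9 CPM in DMSO2 (log2 0.45, SE 0.06, FDR 2.54e-09) and from 56.5 to 65.6 CPM at 24 h against 47.3 to 59.1 CPM (log2 0.21, SE 0.06, FDR 0.00105). Drug and control were apart in the first 3 of these comparisons and overlapped in Ace at 24 h. In Dox the 24 h level, 61.6 to 84.5 CPM, lay above all controls (log2 0.47, SE 0.06, FDR 1.44e-11). The 6 h level in Dox, 42.3 to 54.1 CPM, gave a log2 fold change of -0.15 (SE 0.06, FDR 0.0171) and was not called, although 5 of 7 libraries lay below all controls. It was called lower without Dox library 7 (FDR 0.00254) or DMSO2 library 3 (FDR 0.00905), without the 6 libraries that stood apart (log2 -0.19, FDR 0.000962) and with library size only (log2 -0.30, FDR 1.33e-05). With that scaling the median of all genes in Dox at 6 h moves to -0.15.

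Among the effectors, Isg15 was the most changed in Dox at 24 h. Its libraries ran from 19.1 to 26.3 CPM at 24 h (median 20.5) against 2.65 to 4.22 CPM in DMSO2 (median 3.10). Each Dox library was well above each control, a 6.57-fold difference (log2 2.72, SE 0.14, FDR 7.74e-28). At 6 h the Dox libraries ran from 3.84 to 6.95 CPM (median 5.01) against 2.63 to 3.84 CPM (median 3.29), just above the highest control (log2 0.67, SE 0.14, FDR 3.5e-05). In 5FU nothing was detected at 6 h (2.41 to 3.75 CPM against 2.45 to 3.10 CPM; log2 -0.01, SE 0.16, FDR 0.978), and at 24 h all 6 libraries, 6.21 to 10.1 CPM, lay above all controls, 2.62 to 4.40 CPM (log2 1.17, SE 0.15, FDR 5.38e-10). In Ace the 6 h value was -0.25 (FDR 0.203), and at 24 h the libraries ran from 3.76 to 7.76 CPM, 6 of 7 above all controls (log2 0.71, SE 0.14, FDR 2.41e-05).

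Mx1 was measured on few counts, 12 to 135 in a library. Under Dox at 24 h it ran from 4.58 to 6.33 CPM (median 4.96) against 0.797 to 1.86 CPM in DMSO2 (median 1.31), with all Dox libraries above all controls (3.97-fold, log2 1.99, SE 0.19, FDR 1.51e-14). In 5FU at 24 h the libraries overlapped with DMSO1, 1.66 to 3.20 against 0.783 to 2.24 CPM (log2 0.66, SE 0.22, FDR 0.00692), and the call was lost in 5 of the 12 fits that left out 1 library of these groups (DMSO1 libraries 4, 5 and 6 and 5FU libraries 1 and 6; highest FDR 0.0274) and in a fit of the compared groups only (FDR 0.0225). The remaining values were 0.51 in Ace at 24 h (FDR 0.0368), 0.32 in Dox at 6 h (FDR 0.183), 0.09 in Ace at 6 h (FDR 0.797) and -0.33 in 5FU at 6 h (FDR 0.22), none of them called. Mx1 was thus called at 24 h only, in 5FU and Dox.

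Rsad2 had its highest level in 5FU at 24 h. It ran there from 2.68 to 3.77 CPM (median 3.55; 51 to 72 counts) against 0.261 to 0.785 CPM in DMSO1 (median 0.498; 4 to 15 counts). All 5FU libraries lay above all controls and above every library of every other group, and the difference from DMSO1 was 6.29-fold (log2 2.65, SE 0.28, FDR 8.86e-13). In Dox at 24 h it ran from 1.45 to 2.29 CPM (median 1.87) against 0.155 to 0.991 CPM (log2 1.70, SE 0.26, FDR 3.01e-08), again without overlap. At 6 h Rsad2 fell in Dox, from 0.778 to 2.20 CPM in DMSO2 (median 1.54) to 0.488 to 1.70 CPM (median 0.72), with 4 of 7 libraries below all controls (log2 -0.74, SE 0.25, FDR 0.00638). This call was lost in 8 of 14 fits without 1 library (DMSO2 libraries 1, 2 and 4 and Dox libraries 1, 2, 3, 5 and 6; highest FDR 0.0219) and in a fit of the compared groups only (FDR 0.0222), and without the libraries that stood apart the value was -1.21 (FDR 8.46e-05). The 6 h values in Ace (-0.67, FDR 0.0283) and 5FU (0.13, FDR 0.718) and the 24 h value in Ace (0.58, FDR 0.0849) were not called.

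Ifit3 rose at 24 h in 5FU and in Dox. The 5FU libraries ran from 1.82 to 2.90 CPM (median 2.24; 31 to 54 counts) against 0.38 to 0.994 CPM in DMSO1 (median 0.649), all above all controls (3.37-fold, log2 1.75, SE 0.26, FDR 3.13e-08). The Dox libraries ran from 1.15 to 3.08 CPM (median 2.15) against 0.495 to 1.38 CPM in DMSO2 (median 0.815), and 6 of 7 lay above all controls (2.62-fold, log2 1.39, SE 0.23, FDR 2.46e-07). At 6 h the log2 values were -0.37 in 5FU (FDR 0.272), -0.82 in Ace (FDR 0.023) and 0.30 in Dox (FDR 0.304), and in Ace at 24 h 0.16 (FDR 0.646). None of these passed the threshold.

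**Figure D2:**
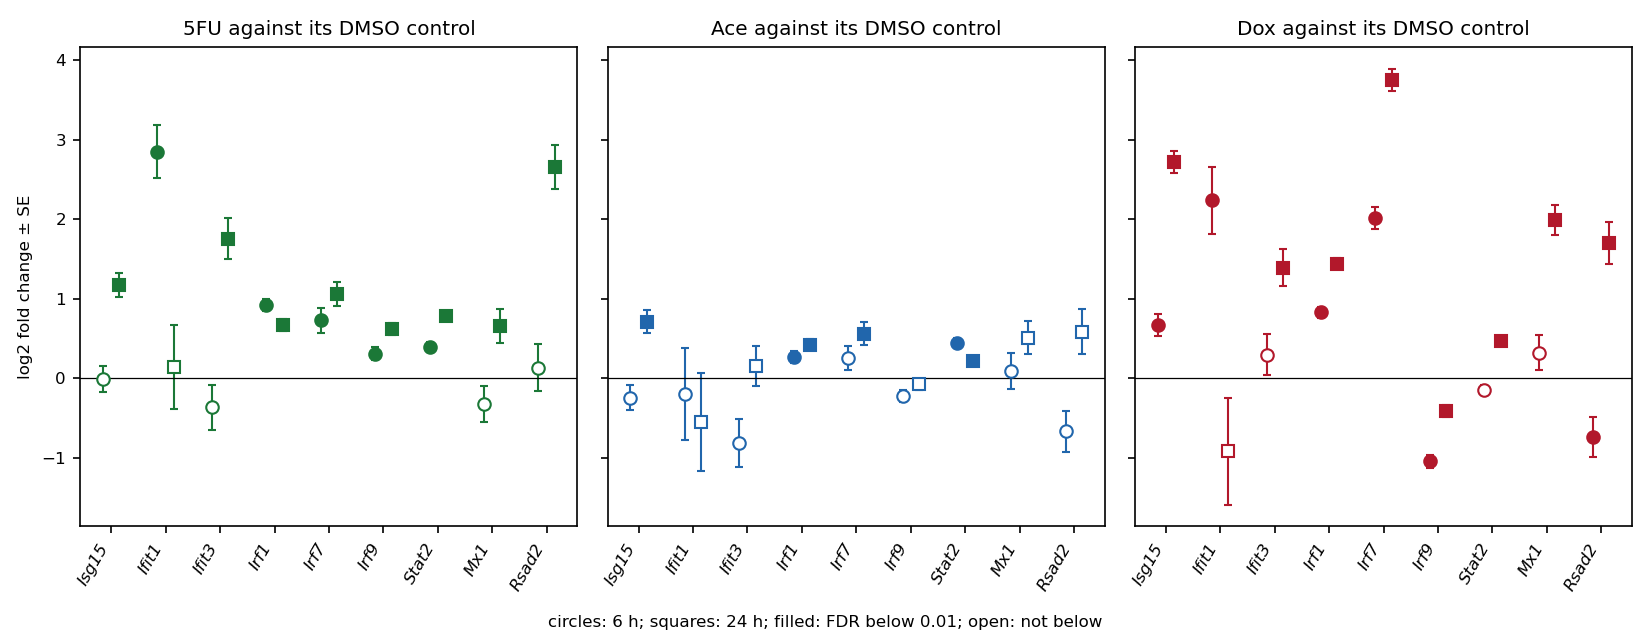
log2 fold change against the matched DMSO control (y axis, with SE as bars) of each gene (x axis) for 5FU, Ace and Dox, at 6 h (circles) and 24 h (squares), filled where the FDR was below 0.01. Most genes are higher at 24 h in 5FU and Dox, Ifit1 is called at 6 h only, and Irf9 is the one gene below 0 in Dox at both times with filled symbols.

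Ifit1 ran against this time course. At 6 h in 5FU it ran from 1.38 to 7.01 CPM (median 4.30; 25 to 139 counts) against 0.286 to 1.19 CPM in DMSO1 (median 0.519; 6 to 23 counts). All 6 libraries lay above all controls, a 7.20-fold difference (log2 2.85, SE 0.34, FDR 7.38e-11), and the lowest of them, library 1 at 1.38 CPM, was one of the libraries that stood apart. In Dox at 6 h the counts were 19, 28, 22, 13, 16, 19 and 2 in the 7 libraries, or 0.118 to 1.45 CPM (median 1.06), against 0.0476 to 0.358 CPM in DMSO2 (1 to 7 counts). In Dox 6 of 7 libraries lay above all controls and library 7, another that stood apart, lay among them (log2 2.24, SE 0.42, FDR 3.53e-06; 2.54 without the libraries that stood apart). At 24 h Ifit1 was near the limit of what could be counted: 5 counts at most in Dox, with 3 of 7 libraries at 0, 4 at most in Ace, 8 at most in 5FU and 7 at most in the controls. No 24 h comparison was called (FDR 0.835 in 5FU, 0.489 in Ace and 0.191 in Dox). A decrease or a small change at these counts could go undetected. The 24 h effects of 5FU and Dox were nevertheless called smaller than those at 6 h, as given below.

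A gene near Ifit1 in the rat genome, Ifit1bl, is a paralog of it, and the counting could split reads that such copies share, so the values of both are uncertain. Ifit1bl was not in the set and was added after its values were seen. In Dox at 6 h it had 59.0, 60.6, 60.01, 33.8, 58.9, 59.8 and 11.1 CPM in libraries 1 to 7, against 4.90 to 6.28 CPM in DMSO2. All Dox libraries lay above the controls (8.91-fold, log2 3.16, SE 0.21, FDR 1.4e-20), and libraries 4 and 7 lay below the other 5. In Dox at 24 h it ran from 9.28 to 15.0004 CPM against 2.07 to 3.37 CPM (log2 2.15, SE 0.24, FDR 1.77e-12). In 5FU at 6 h the direction was opposite to that of Ifit1: 4.57 to 10.4 CPM against 6.53 to 27.3 CPM in DMSO1 (log2 -1.33, SE 0.23, FDR 9.26e-07). Libraries 4 and 7 of Dox at 6 h had summed smooth muscle markers of 2817 CPM, the median of the group, and 1059 CPM, the lowest of a range up to 3210 CPM. In DMSO1 at 6 h library 3 was lowest both for Ifit1bl, at 6.53 CPM, and for that sum, at 899 CPM. Library 1 of 5FU at 6 h went the other way, lowest for Ifit1bl, at 4.57 CPM, and highest for that sum, at 2646 CPM. Dox library 7 and DMSO1 library 3 at 6 h were also lowest of their groups for cardiomyocyte markers, at 31707 and 37222 CPM. The part of any of these markers in the result was not tested. Over the 65 libraries, with group means removed, the log2 CPM of Ifit1 and Ifit1bl had a Pearson correlation of 0.58, and Ifit1 had 0.23 with Ifit2 and 0.28 with Ifit3. These points share libraries and depth, and low counts of Ifit1 add noise.

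**Figure D3:**
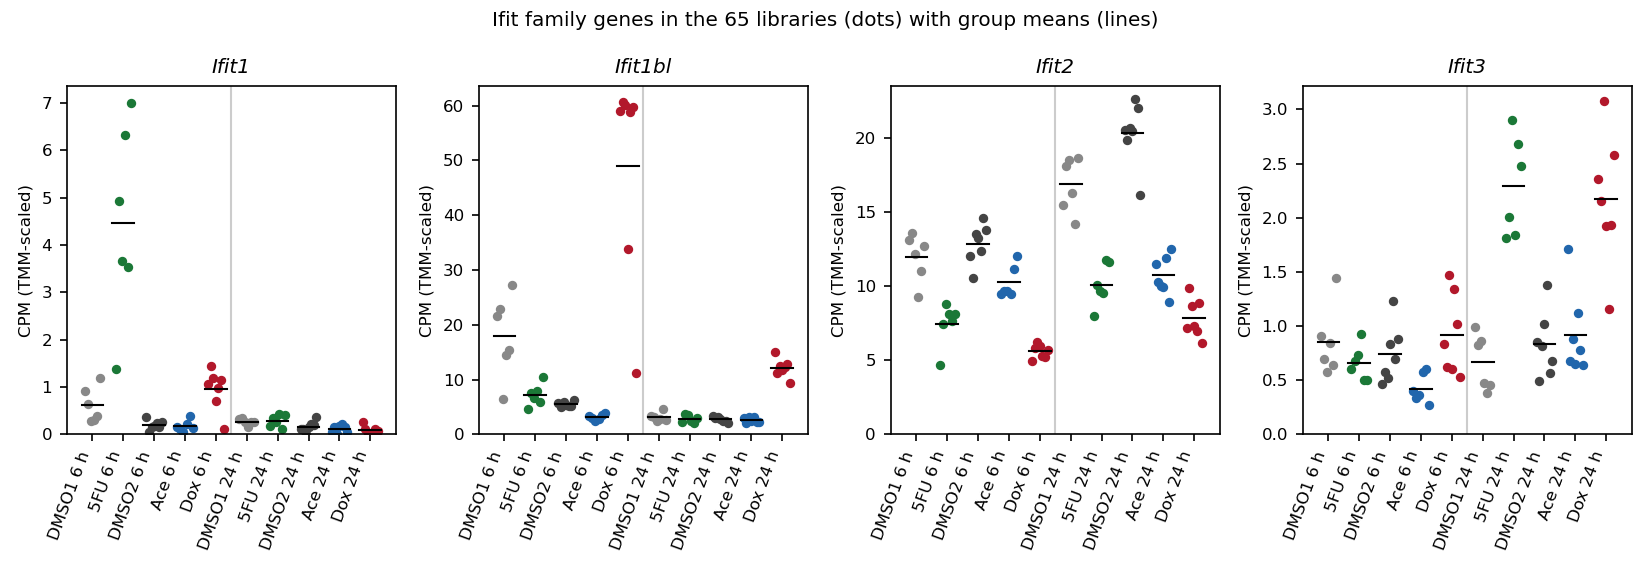
CPM (y axis, linear from 0, a scale for each gene) of Ifit1, Ifit1bl, Ifit2 and Ifit3 in the 65 libraries (dots) of the 10 groups (x axis; 24 h right of the grey line), with group means as lines. Ifit1 peaks in 5FU at 6 h and Ifit1bl in Dox at 6 h (11.1 to 60.6 CPM), while Ifit3 is highest in 5FU and Dox at 24 h. Ifit2 at 24 h is below its control in 5FU, in Ace and in Dox (6.13 to 9.86 CPM in Dox against 16.2 to 22.6 CPM in DMSO2).

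The control cultures were compared between the shares of DMSO and between the times. No group was without DMSO, so the effect of the solvent itself was not measured. At 24 h no member differed between 1% and 0.25% DMSO by edgeR's test, none had an unadjusted p below 0.05 and DESeq2's Wald test called none either, where 0.433% of all genes were called. At 6 h 3 members did, where 9.87% of all genes were called higher and 6.60% lower in 1% DMSO (16.5% in all). Ifit1 was higher, at 0.286 to 1.19 CPM against 0.0476 to 0.358 CPM (log2 1.61, SE 0.45, FDR 0.00509). Rsad2 was lower, at 0.58 to 1.09 CPM against 0.778 to 2.20 CPM (log2 -0.99, SE 0.26, FDR 0.00281), and so was Irf9, at 11.2 to 15.7 CPM against 16.0 to 17.8 CPM (log2 -0.28, SE 0.08, FDR 0.00477). Of these, Irf9 alone had no overlap between the controls, as 5.07% of all genes did. Of 13 fits without 1 library, 5 lost the call of Ifit1 (DMSO1 libraries 1, 2 and 6 and DMSO2 libraries 2 and 6; highest FDR 0.0361), 4 that of Irf9 (DMSO1 libraries 2, 5 and 6 and DMSO2 library 5; 0.0329) and 2 that of Rsad2 (library 1 of each; 0.0107). Fitting only the groups compared left Rsad2 called and not Ifit1 (FDR 0.011) or Irf9 (FDR 0.0107). Ifit1bl was higher in 1% DMSO at 6 h as well (log2 1.71, SE 0.22, FDR 1.61e-08), with all DMSO1 libraries above all DMSO2 libraries. Without the libraries that stood apart Stat2 was called lower too (log2 -0.18, FDR 0.00585). Between the same controls the fibroblast marker sum was 6495 to 10914 against 9687 to 14458 CPM, the endothelial 152 to 209 against 241 to 297 CPM and the smooth muscle 899 to 4181 against 728 to 1118 CPM, and the part of these shifts in the values was not tested.

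Between 6 and 24 h in the controls, with both DMSO shares together, Irf9 rose by 0.41 (SE 0.05, FDR 1.04e-09), Irf7 rose by 0.37 (SE 0.11, FDR 0.00222) and Rsad2 fell by 0.99 (SE 0.21, FDR 2.51e-05) on the log2 scale, where 32.7% of all genes rose and 31.9% fell (64.6% in all). The Irf7 call was lost without library 1 of DMSO1 at 24 h (log2 0.26, FDR 0.0199), in which Irf7 stood at 21.0 CPM, and without all 6 libraries that stood apart (log2 0.24, FDR 0.0212). Irf1 hardly moved (log2 0.00, SE 0.05, FDR 0.984). Summed macrophage markers ran from 71.1 to 91.7 CPM in the 6 h controls and from 123 to 156 CPM in the 24 h controls, and the part of that shift in these values was not tested.

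Whether the drug effects changed with time was tested as the 24 h effect minus the 6 h effect. In Dox all 9 members differed, 8 with a larger and Ifit1 with a smaller effect at 24 h, where 34.0% of all genes had a larger and 30.8% a smaller effect (64.8% in all). The difference was 2.45 for Rsad2 (SE 0.36, FDR 1.85e-08), 2.05 for Isg15 (SE 0.20, FDR 1.75e-14), 1.74 for Irf7 (SE 0.19, FDR 3.49e-12), 1.67 for Mx1 (SE 0.29, FDR 9.19e-07) and -3.16 for Ifit1 (SE 0.80, FDR 4e-04). For Irf9 it was 0.63 (SE 0.11, FDR 7.68e-07), so the decrease was smaller at 24 h. For Ifit3 it was 1.09 (SE 0.35, FDR 0.00459), and this call was lost without library 5 of DMSO2 or 7 of Dox at 6 h or library 2 of DMSO2 at 24 h (highest FDR 0.0175), and at 0.84 without the libraries that stood apart (FDR 0.0351). In 5FU 5 members had a larger effect at 24 h and Ifit1 a smaller one (20.3% and 19.2% of all genes, 39.5% in all). The 5FU differences were 2.52 for Rsad2 (SE 0.41, FDR 4.99e-07), 2.12 for Ifit3 (SE 0.39, FDR 5.85e-06) and -2.71 for Ifit1 (SE 0.65, FDR 0.000381). The Mx1 difference, 0.98 (SE 0.32, FDR 0.00749), was lost in 11 of 24 fits without 1 library: libraries 1 and 6 of 5FU and 4, 5 and 6 of DMSO1 at 24 h, and libraries 1, 3 and 5 of 5FU and 1, 3 and 6 of DMSO1 at 6 h (highest FDR 0.0189). It was also lost with the compared groups only (FDR 0.0138) and without the libraries that stood apart (FDR 0.0155). Irf9 had a larger 5FU effect at 24 h without those libraries (log2 0.35, FDR 0.00272), with library size only (log2 0.39, FDR 0.00541) and without library 1 of DMSO1 at 24 h (FDR 0.000521) or library 2 of DMSO1 at 6 h (FDR 0.00681). In Ace Isg15 alone passed, at 0.96 (SE 0.21, FDR 0.000501), where 5.58% of all genes had a larger and 6.06% a smaller effect at 24 h (11.6% in all). Rsad2 passed as well with the DESeq2 Wald test (log2 1.26, FDR 0.00613), with library size only (log2 1.34, FDR 0.00748) and without the libraries that stood apart (log2 1.29, FDR 0.00474), and also without library 2 or 7 of Ace or 2 or 5 of DMSO2 at 24 h or library 7 of DMSO2 at 6 h (highest FDR 0.00994). The mean of Rsad2 in DMSO2 itself fell, from 1.53 CPM at 6 h to 0.562 CPM at 24 h. In Ace the means were 0.960 and 0.835 CPM, so Rsad2 was not higher in Ace at 24 h than at 6 h. In Dox they were 0.914 and 1.84 CPM, so the Rsad2 difference given for Dox includes this fall of the control.

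The drugs were also set against each other, each effect taken against its own control, except that Dox and Ace share DMSO2 and were compared directly. At 24 h the Dox effect exceeded the 5FU effect for Irf7 by 2.70 (SE 0.20, FDR 4.44e-19), Isg15 by 1.54 (SE 0.20, FDR 4.88e-10), Mx1 by 1.33 (SE 0.29, FDR 4.77e-05) and Irf1 by 0.77 (SE 0.10, FDR 7.12e-10). It was below the 5FU effect for Irf9, as given above, and for Stat2 by -0.31 (SE 0.08, FDR 0.000585), so that 4 members were higher and 2 lower, where 35.8% and 35.4% of all genes were (71.1% in all). Rsad2 (-0.95, SE 0.40, FDR 0.0265) and Ifit3 (-0.37, SE 0.36, FDR 0.346) were larger in 5FU than in Dox by these estimates, but neither difference was called. The Ace effect at 24 h was below the 5FU effect for Rsad2 (-2.07, SE 0.41), Ifit3 (-1.60, SE 0.37), Irf9 (-0.70, SE 0.11) and Stat2 (-0.56, SE 0.08) and above it for no member (18.2% of all genes were lower and 19.1% higher, 37.3% in all). Dox cultures were above Ace cultures at 24 h in 7 members and below in Irf9 (40.7% and 39.9% of all genes, 80.6% in all). For Irf7 that difference was 3.19 (SE 0.13, FDR 1.04e-31).

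At 6 h the Dox effect exceeded the 5FU effect for Irf7 by 1.29 (SE 0.21, FDR 3.28e-07) and for Isg15 by 0.67 (SE 0.22, FDR 0.00647) and was below it for Irf9 and for Stat2 (-0.54, SE 0.08, FDR 6.45e-08), where 22.0% of all genes were higher and 24.0% lower (45.9% in all). The Isg15 difference was lost in 9 of 26 fits without 1 library (libraries 3 and 6 of 5FU, 1 and 6 of DMSO1, 2, 3 and 6 of DMSO2, and 5 and 7 of Dox; highest FDR 0.0169), and without the libraries that stood apart Rsad2 was called in its place (log2 -1.40, FDR 0.00271). For Irf1 the difference was -0.09 (SE 0.10, FDR 0.483) and for Ifit1 -0.61 (SE 0.60, FDR 0.401), so no difference between these drugs was detected for either gene at 6 h. The Ace effect at 6 h was below the 5FU effect for Ifit1 (-3.05, SE 0.68), Irf1 (-0.65, SE 0.10) and Irf9 (-0.53, SE 0.11), where 13.8% of all genes were lower and 17.1% higher (30.9% in all). Dox cultures at 6 h were above Ace cultures in 5 members and below in Irf9 and Stat2 (30.6% and 31.4% of all genes, 62.1% in all).

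The genes around the set were described from lists of the same pathway. Of 14 listed interferons and receptor subunits, the 6 in the table were all receptor subunits, and the interferon genes listed were not analysed here. In 5FU at 24 h 5 of the 6 were higher and none lower, where all genes had 28.0% and 27.8%. Dox lowered Ifnar2, the signal-carrying chain of the type I interferon receptor, from 19.7 to 22.9 CPM down to 9.74 to 12.0 CPM at 6 h (log2 -0.98, SE 0.05, FDR 3.71e-26) and from 19.9 to 24.8 CPM down to 8.91 to 11.6 CPM at 24 h (log2 -1.08, SE 0.05, FDR 4.31e-29). Ifnar1, its partner chain, fell in Dox at 6 h (log2 -0.45, SE 0.04, FDR 9.04e-16), while Ifngr2, a chain of the interferon gamma receptor, rose at 24 h in Dox (log2 0.67, SE 0.05, FDR 5.2e-18) and in 5FU (log2 0.53, SE 0.06, FDR 3.98e-12).

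Among 16 sensors and adaptors tested of 21 listed, 9 were higher and 3 lower in Dox at 24 h (all genes 40.4% and 41.0%), 6 and 3 in 5FU at 24 h (28.0% and 27.8%), and 3 and 5 in Ace at 24 h (18.2% and 19.1%). Cgas, the sensor of DNA in the cytosol, rose in Dox from 0.742 to 1.18 CPM in the control to 1.49 to 4.57 CPM at 24 h (log2 1.77, SE 0.20, FDR 1.33e-12), and in Ace to 1.29 to 3.09 CPM (log2 1.16, SE 0.20, FDR 1.89e-06). Cgas was already higher at 6 h, when the control stood at 1.25 to 2.58 CPM. It ran there from 4.04 to 5.43 CPM in Dox (log2 1.18, SE 0.17, FDR 1.36e-08) and from 2.52 to 4.08 CPM in Ace (log2 0.78, SE 0.18, FDR 0.000268). Sting1, which relays the cGAS signal, fell at 6 h in Dox (log2 -1.18, SE 0.15, FDR 2.72e-10), in Ace (log2 -0.65, SE 0.15, FDR 0.000259) and in 5FU (log2 -0.46, SE 0.15, FDR 0.00842). Ifih1, the sensor MDA5 of double-stranded RNA, rose in 5FU at 24 h (log2 1.08, SE 0.10, FDR 4.12e-15), and Tlr3, a receptor of the same kind of RNA, in Dox at 6 h (log2 1.02, SE 0.09, FDR 9.8e-16). Mavs, the adaptor of the RNA sensors, fell in Dox at 24 h from 48.5 to 54.8 CPM down to 19.7 to 24.9 CPM (log2 -1.24, SE 0.06, FDR 1.39e-29).

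Among 20 kinases, phosphatases and other regulators tested of 21 listed, 12 were higher and 3 lower in Dox at 24 h (all genes 40.4% and 41.0%), while at 6 h 8 were higher and 9 lower (31.5% and 32.7%). Samhd1, which degrades nucleotides needed by viruses, rose in Dox at 24 h from 3.401 to 4.92 CPM to 35.8 to 44.5 CPM (9.82-fold, log2 3.30, SE 0.08, FDR 4.35e-44). Trex1, the exonuclease that clears DNA from the cytosol, rose 4.29-fold (log2 2.10, SE 0.08, FDR 2.18e-35), and it rose in 5FU at 24 h too (log2 0.60, SE 0.08, FDR 5.58e-09). Adar, which edits double-stranded RNA and so keeps it from the sensors, fell in Dox at both times, from 64.9 to 81.4 CPM down to 29.4 to 38.8 CPM at 6 h (log2 -1.08, SE 0.06, FDR 2.04e-23) and by 1.23 on the log2 scale at 24 h (SE 0.06, FDR 5.31e-27). Socs1, a feedback inhibitor of JAK kinases, rose in 5FU at 6 h (log2 0.82, SE 0.18, FDR 6.6e-05), in Dox at 6 h (log2 0.98, SE 0.15, FDR 7.45e-08) and in Ace at 24 h (log2 0.64, SE 0.15, FDR 0.000383). Stat3 fell in Dox at 24 h (log2 -0.65, SE 0.05, FDR 6.27e-19).

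Of 60 other interferon-stimulated genes 55 were tested, and their counts did not follow one direction in every drug. In 5FU at 24 h 29 were higher and 5 lower, that is 52.7% and 9.09% of them, where all genes had 28.0% and 27.8%. In Dox at 24 h 26 were higher and 20 lower (47.3% and 36.4%, where all genes had 40.4% and 41.0%), and in Ace at 24 h 9 and 16 (16.4% and 29.1%, where all genes had 18.2% and 19.1%). At 6 h the counts were 7 higher and 10 lower in 5FU (all genes 23.4% and 24.5%), 3 and 14 in Ace (16.5% and 15.2%), and 15 and 14 in Dox (31.5% and 32.7%), so that neither share in 5FU or Dox was above that of all genes. Their median log2 fold change at 24 h was 0.42 in 5FU, -0.10 in Ace and 0.34 in Dox. Gbp4, a guanylate-binding protein, rose in Dox at 24 h from 0.189 to 0.771 CPM to 6.00 to 7.18 CPM (15.7-fold, log2 3.97, SE 0.26, FDR 2.03e-22), in 5FU at 24 h (log2 1.72, SE 0.26, FDR 6.81e-08) and in Ace at 24 h (log2 1.26, SE 0.30, FDR 0.000282). Isg20, an RNA exonuclease, rose in Dox from 4.17 to 6.28 CPM to 42.9 to 49.4 CPM at 24 h (8.78-fold, log2 3.13, SE 0.15, FDR 1.29e-28) and had already risen at 6 h (log2 2.16, SE 0.16, FDR 5.41e-19). Ifit2, the family member next to Ifit3 in the genome, fell in Dox at 24 h from 16.2 to 22.6 CPM down to 6.13 to 9.86 CPM (log2 -1.38, SE 0.10, FDR 4.17e-20), the opposite direction to Ifit3. The 24 h libraries of 5FU (7.97 to 11.7 CPM) also lay below all of DMSO1 (14.2 to 18.6 CPM), where Ifit3 rose too. Those of Ace (8.92 to 12.5 CPM) lay below all of DMSO2. At 6 h Ifit2 was lower in 5FU (log2 -0.68, SE 0.11, FDR 2.63e-07). In Dox at 6 h it ran from 4.95 to 6.19 CPM against 10.5 to 14.6 CPM in DMSO2, while Ace at 6 h overlapped with DMSO2. Cxcl11, a chemokine that attracts T cells, fell at 24 h in 5FU (log2 -2.46, SE 0.21, FDR 7.54e-16), Ace (log2 -1.35, SE 0.16, FDR 1.72e-10) and Dox (log2 -1.90, SE 0.17, FDR 4.29e-16), while Cxcl10, a chemokine of the same receptor, rose in Ace at 24 h (log2 1.78, SE 0.26, FDR 4.54e-08).

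The 16 genes of antigen presentation, all tested, held the largest increases among the genes named here. In Dox at 24 h 9 were higher and 4 lower (all genes 40.4% and 41.0%), in 5FU at 24 h 10 and 1 (28.0% and 27.8%), and in Ace at 24 h 4 and 1 (18.2% and 19.1%). Nlrc5, the activator of the class I major histocompatibility genes, rose in Dox at 24 h from 0.771 to 1.71 CPM to 24.6 to 33.5 CPM (24.8-fold, log2 4.63, SE 0.18, FDR 3.29e-33). Tap1, a subunit of the transporter that loads peptides for class I molecules, rose in Dox from 14.2 to 17.8 CPM to 113 to 143 CPM at 6 h (8.06-fold, log2 3.01, SE 0.12, FDR 1.69e-32) and from 12.9 to 16.7 CPM to 261 to 328 CPM at 24 h (19.5-fold, log2 4.29, SE 0.12, FDR 7.12e-41). In 5FU Tap1 rose 2.61-fold at 6 h (log2 1.38, SE 0.13, FDR 7.63e-15) and 2.85-fold at 24 h (log2 1.51, SE 0.12, FDR 8.52e-17), and in Ace by 0.49 (SE 0.12, FDR 0.000841) and 0.83 (SE 0.12, FDR 2.42e-08) on the log2 scale. Psmb8, an immunoproteasome subunit, fell in Dox at 24 h (log2 -1.501, SE 0.13, FDR 1.63e-16). Cd74, the class II invariant chain made by antigen-presenting cells, fell at 24 h in Ace (log2 -1.31, SE 0.17, FDR 1.6e-09) and in Dox (log2 -2.31, SE 0.19, FDR 4.77e-18). The summed macrophage markers were lower in both, as given above, and also in 5FU at 24 h, where Cd74 was not called lower. The part of these markers in the Cd74 values was not tested.

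**Figure D4:**
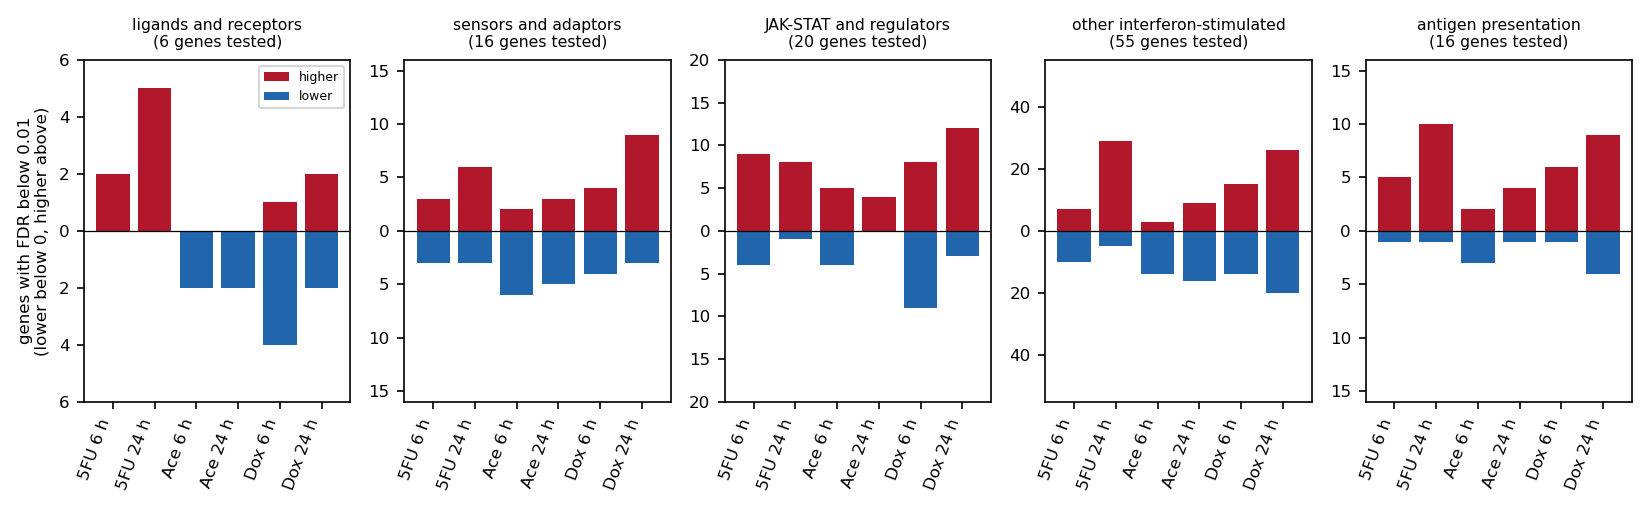
Number of genes (y axis; higher above 0, lower below 0) at an FDR below 0.01 in each of the 6 drug comparisons (x axis), for the 5 pathway lists; the y axis of each panel spans the number of genes tested. In 5FU at 24 h the other interferon-stimulated genes were mostly higher (29 against 5), whereas in Dox at 24 h they were 26 higher and 20 lower.

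Within groups, the members tended to be high or low in the same libraries. With group means removed, 33 of the 36 pairs of members had a positive Pearson correlation of log2 CPM over the 65 libraries, with a median of 0.22 and a range from -0.30 to 0.51. The negative pairs were all of Ifit1, with Irf1 (-0.016), Stat2 (-0.30) and Rsad2 (-0.28). The 28 pairs without Ifit1 were therefore all positive by that choice (median 0.31). The highest value, 0.51, was between Isg15 and Irf7. The pairs share libraries and depth, and the 6 libraries that stood apart over all genes are among those used. Neither these values nor the library values that follow were set against other genes. They are a description and do not show a trait particular to this set. In DMSO1 at 24 h library 1 was above its group mean in all 9 members, by 0.40 on average on the log2 scale, and library 4 was below it in all 9, as was library 7 of Ace at 24 h. Library 5 of Ace at 6 h, library 4 of 5FU at 6 h and library 1 of Ace at 24 h were above in 8 of 9, by 0.36, 0.35 and 0.35, and so were library 2 of DMSO1 at 24 h and library 1 of DMSO1 at 6 h, by 0.22 and 0.15. Of all these, library 1 of DMSO1 at 24 h alone was among the libraries that stood apart over all genes. Its macrophage marker sum, 145 CPM, lay within the range of its group, 123 to 156 CPM. Its sums of cardiomyocyte (30207 CPM), fibroblast (9972 CPM), endothelial (207 CPM) and smooth muscle markers (444 CPM) were each the lowest of the group. The part of these markers in the member values of this library was not tested.

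**Figure D5:**
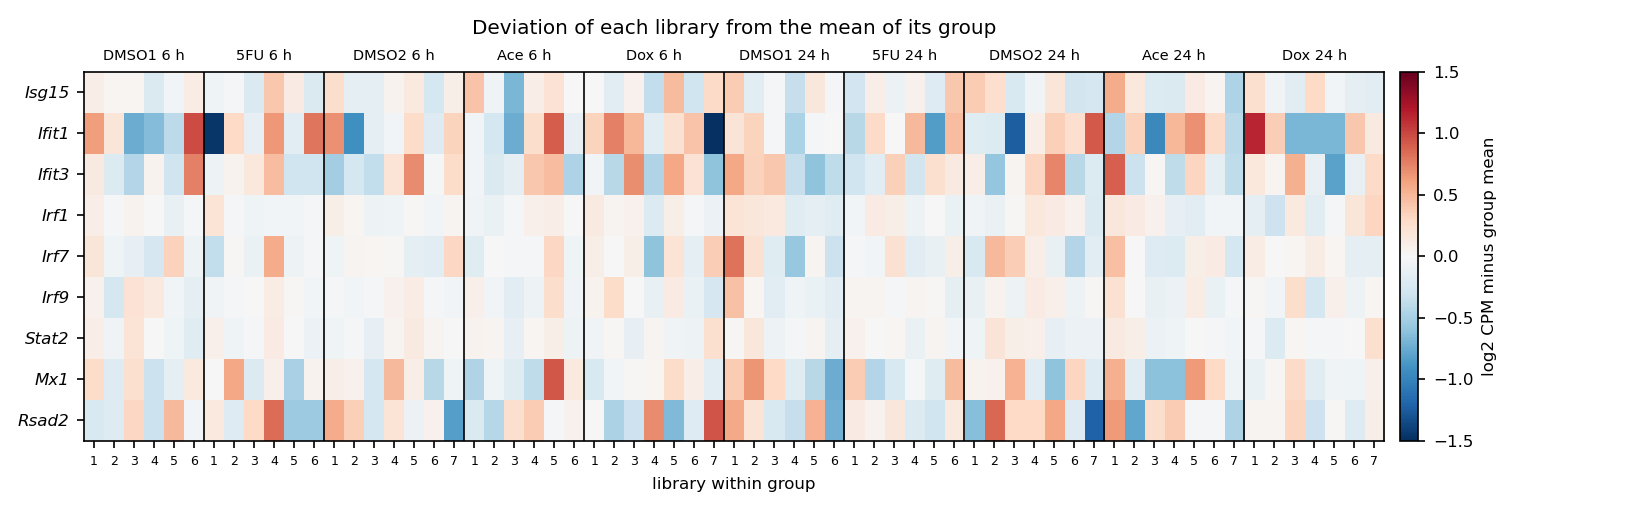
Difference of the log2 CPM of each library from the mean of its group (colour, blue below and red above) for the 9 genes (rows) and the 65 libraries (columns, numbered within the 10 groups). Column 1 of DMSO1 24 h is red in all 9 rows, with a mean of 0.40, and Ifit1 has the strongest colours, in 5FU 6 h library 1 and Dox 6 h library 7.

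The genes most like each member over all 65 libraries, by the Pearson correlation of log2 CPM among 12402 genes with a mean count of at least 20, differed between members. For Irf7 they were Rhod (0.97), Eif2ak2 (0.97) and RT1-CE5 (0.97), of which Eif2ak2 encodes the RNA-activated kinase PKR and is an interferon-stimulated gene, and RT1-CE5 is a class I gene. For Isg15 they were Naa80 (0.95), Hyal1 (0.94) and Khk (0.93), and Naa80 was also first for Mx1 (0.85). For Irf1 they were Frmd8 (0.96), Gfer (0.95) and Slc30a1 (0.95), and for Irf9 Klf11 (0.93), Zdhhc17 (0.92) and Nbr1 (0.91). For Ifit3, Ifit1 and Rsad2, with few counts like Mx1, the first values were lower, at 0.80 for Kmt5a, 0.76 for Msn and 0.71 for Nploc4. For Rsad2, Nploc4 was followed by Rfng and by the interferon-stimulated gene Dtx3l (0.71 each). The groups differ in most genes, so high values over the libraries are common, and nothing is drawn from them about shared control.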

How the data were processed

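RNA of 65 cultures was sequenced from polyA-selected, paired-end libraries. Per the study's methods and the labels, the authors assigned reads with kallisto 0.46.0 to transcripts of Ensembl release 96, used tximport to obtain values per Entrez gene and dropped weakly expressed genes; the values are the deposited estimated counts, whole numbers and not normalized, and no strand setting is given in the sources used here. Symbols came from RefSeq GRCr8 (14009 of 14554 identifiers matched); genes without a matched row, such as those of the listed interferons, were not analysed here. Columns carry no replicate numbers, so library numbers are names only.

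After TMM scaling, the counts entered edgeR 4.0.16 in R 4.3.3 (glmQLFit, then glmQLFTest) in 1 model of 10 groups with 18 contrasts, after a filter (highest count over the libraries 10 or more) that removed no gene; FDR is Benjamini-Hochberg adjusted over all genes, with 0.01 as the threshold. CPM are TMM-scaled and correlations use log2 CPM with a prior count of 2. The scripts were tested on simulated data. No 2 libraries of a group agreed within sampling noise (smallest chi-square per gene 2.91 in 180 pairs). A library stood apart when its root mean square log2 distance from the group median was at least 0.35. Counts of 3 or fewer were treated as the floor.

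The members and the lists (interferons and receptors, sensors and adaptors, kinases and other regulators, other interferon-stimulated genes, antigen presentation, and markers of cardiomyocytes, fibroblasts, endothelial cells, macrophages and smooth muscle) were chosen with earlier results of these data known. Named genes were all members and, per list without markers and per drug comparison, at most the 2 largest increases and 2 largest decreases that passed the FDR threshold with an average of 20 counts or more, and the 3 genes most like each member (those of Stat2 are not reported here). Ifit1bl, and Ifit2 and Ifit3 beside it, were set out as a family after their values were seen. Alternatives were the DESeq2 1.42.0 Wald test, DESeq2 size factors, library size only, the compared groups only, filterByExpr, a table without any filter, 0.1 as the FDR threshold, calls restricted to a log2 fold change of 1 or more, leaving out each library and, added after the data were seen, leaving out the 6 libraries that stood apart.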

Additional observations from a re-analysis of the deposited data

Results flagged for a closer look

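In 8 of the 90 sets formed by a member and a group, 1 library stood far from the others by Dixon's criterion, and chance flags about 1 in 20 such sets. The high libraries were library 1 for Irf1 (52.6 CPM) and library 4 for Irf7 (20.4 CPM) in 5FU at 6 h, library 5 for Irf7 (13.9 CPM) and for Mx1 (2.24 CPM) in Ace at 6 h, library 7 for Irf7 in DMSO2 at 6 h (11.7 CPM), library 1 for Irf9 in DMSO1 at 24 h (26.9 CPM) and library 7 for Stat2 in Dox at 6 h (54.1 CPM). The low one was library 6 for Irf9 in 5FU at 24 h (28.0 CPM).

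The effect at 24 h differed from that at 6 h, by edgeR's interaction contrast at an FDR below 0.01, in 16 of 27 tests. In 5FU the differences on the log2 scale were 1.18 for Isg15, -2.71 for Ifit1, 2.12 for Ifit3, 0.38 for Stat2, 0.98 for Mx1 and 2.52 for Rsad2. In Ace the difference was 0.96 for Isg15. In Dox the differences were 2.05 for Isg15, -3.16 for Ifit1, 1.09 for Ifit3, 0.61 for Irf1, 1.74 for Irf7, 0.63 for Irf9, 0.62 for Stat2, 1.67 for Mx1 and 2.45 for Rsad2.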

How the results depend on the processing

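No paired analysis was possible because the columns carry no replicate numbers. The number of members called moved by more than 1.5 times as follows, and the cause was not tested beyond what each setting changes by construction. For the Ace effect at 24 h minus 6 h it was 2 instead of 1 with the DESeq2 Wald test, with library size only and without the 6 libraries that stood apart, and 1 to 2 over the fits without 1 library. For DMSO1 against DMSO2 at 6 h it was 1 instead of 3 with the compared groups only, and 1 to 3 over the fits without 1 library (1 without DMSO1 library 1, 2 or 6). At an FDR below 0.1 it was 5 for Ace 6 h, 5 for the controls over time, 4 for the Ace effect over time, and 5 and 7 for Ace minus 5FU at 6 and 24 h. With a minimum log2 fold change of 1 it was 1 and 4 for 5FU at 6 and 24 h, 0 and 0 for Ace, 3 for Dox 6 h, 1 for DMSO 6 h, 0 for the controls over time, 0 for the Ace effect over time, 3 for Dox minus Ace and 2 for Dox minus 5FU at 6 h, and 1 and 2 for Ace minus 5FU at 6 and 24 h. Of the values that changed sign, Ifngr2 in Dox at 6 h alone was called as reported (-0.00128 with library size only). Isg15 in 5FU at 6 h was 0.00553 with the DESeq2 Wald test, 0.00552 with DESeq2 size factors, 0.00266 with filterByExpr and 0.00809 without the libraries that stood apart. With library size only Ifit1bl in Ace at 24 h was 0.00803, and Irf1 was -0.061 between the 6 h controls and -0.00376 for the controls over time, which was -0.011 with the compared groups only and -0.016 with filterByExpr. Without the libraries that stood apart Irf1 was -0.012 between the 6 h controls, -0.019 for the controls over time and 0.018 for Dox minus 5FU at 6 h, and between the 24 h controls Isg15 was -0.017 and Irf9 -0.083. Over the fits without 1 library the signs changed for Isg15 (-0.10 to 0.038) and Rsad2 (-0.12 to 0.26) in 5FU at 6 h, Ifit1 (-0.56 to 0.00577) and Mx1 (-0.18 to 0.19) in Ace at 6 h, Ifit3 (-0.066 to 0.32) and Ifit1bl (-0.11 to 0.00662) in Ace at 24 h, Ifit3 between the 6 h controls (-0.015 to 0.35), Isg15 (-0.029 to 0.13), Irf9 (-0.095 to 0.053), Stat2 (-0.00285 to 0.057) and Rsad2 (-0.25 to 0.11) between the 24 h controls, Ifit3 (-0.16 to 0.018) and Irf1 (-0.032 to 0.022) for the controls over time, Ifit1 for the Ace effect over time (-0.56 to 0.014), Rsad2 for Dox minus Ace at 6 h (-0.29 to 0.026) and Ifit1bl for Ace minus 5FU at 24 h (-0.038 to 0.19). Library size only moved the median of all genes to -0.15 in Dox at 6 h, 0.27 for the Dox effect over time and -0.11 for Dox minus Ace at 6 h. Of the list counts, that of the other interferon-stimulated genes in Dox at 24 h was 21 instead of 46 with a minimum log2 fold change of 1, and 8 instead of 34 in 5FU at 24 h. Low counts limit Ifit1, Ifit3, Mx1 and Rsad2.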
